A study of Schizosaccharomyces pombe with 384 samples.

Results

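Antisense transcripts run over a gene on the opposite DNA strand. In the table of *S. pombe* transcripts, 635 of 7259 rows carried an antisense name, and the 185 with a mean of at least 5 CPM (reads of a transcript scaled to the total of its library) over the 8 wild-type libraries are described here, each beside its partner, the gene on the other strand. The members were thus chosen by their measured wild-type level, which is given below as a description only. The same 8 wild-type libraries are also the reference of the comparisons with wild type. The choice can therefore affect the shares called higher and lower. Of the 185, all matched a RefSeq annotation by identifier, 184 with the same start and end as in the deposited table.

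Transcript levels in 94 haploid strains of the Bioneer deletion library (version M-3030H), each lacking a different gene, and in wild type come from 3′ mRNA sequencing. All strains, wild type included, grew in YES medium, a rich medium with glucose, at 32 °C in deep-well plates. There were 4 libraries of each deletion strain and 8 of wild type, which came from wells A1 and A2 with 4 libraries each. The study describes the libraries of a strain as biological replicates. Each deletion strain had the same well under every replicate number, so strain and well cannot be told apart. The p-values are without a term for the replicate number unless a replicate block is named. Each deletion is represented by 1 strain, and each library holds the RNA of a whole culture, so fewer cells making a transcript and less of it per cell cannot be told apart. Between 1337512 and 2659644 reads per library were assigned to genes (median 1652418), and 1578511 to 2126622 in wild type. A single read was worth 0.298 to 0.848 CPM, so a count of 0 allows up to 3 reads, or 0.893 to 2.54 CPM, where this limit covers counting error only. A read is taken from near the polyadenylated end of an RNA, so CPM were compared between transcripts without dividing by length.

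The deleted gene served as the check of each label. It was lower in all 4 libraries of its strain than in any wild-type library in 27 strains, overlapped with wild type in 53, and was higher in all 4 libraries in 14, although reads at the end of a transcript can lie outside the deleted coding region. The last group comprises the libraries labelled SPBC3E7.05cΔ, res2Δ, ada2Δ, swd3Δ, hcr1Δ, dbr1Δ, dad3Δ, mug154Δ, amo1Δ, imp1Δ, lem2Δ, caf4Δ, cwf21Δ and lvs1Δ, which go against their labels by this measure and are called by their labels throughout. In a description field, 6 of the 8 wild-type libraries are called knockouts, and they were used as wild type by their title and strain entry.

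In fission yeast, antisense RNAs arise from their own promoters, from bidirectional promoters of a neighbouring gene, or by read-through past the end of a convergent gene. The nuclear exosome and its cofactors, RNA interference and histone deacetylases such as Clr6 keep many of them low, and transcription of one strand can interfere with transcription of the other. Many antisense transcripts overlap meiotic or stress-responsive genes that are kept low in growing cells.

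To show what lies in front of the members on which the results turn, the bases just before their start are printed 5′ to 3′ along the strand of the antisense transcript, from RefSeq (ASM294v3), with TATAAA or its reverse complement TTTATA in capitals. Each run ends at the base before the start, except that of brl1-antisense-1, which covers bases 120 to 24 before it. Their positions are chrI:800013-800132 (minus strand) for cph1-antisense-1, chrI:1476611-1476730 (plus) for SPAC9.08c-antisense-1, chrIII:765436-765555 (plus) for gnr1-antisense-1, chrI:5011505-5011624 (minus) for SPAC890.05-antisense-1, chrIII:2242155-2242251 (minus) for brl1-antisense-1 and chrII:1714578-1714697 (minus) for cay1-antisense-1.
cph1-antisense-1: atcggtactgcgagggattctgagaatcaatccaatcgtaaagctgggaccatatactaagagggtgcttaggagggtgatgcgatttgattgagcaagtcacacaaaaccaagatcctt
SPAC9.08c-antisense-1: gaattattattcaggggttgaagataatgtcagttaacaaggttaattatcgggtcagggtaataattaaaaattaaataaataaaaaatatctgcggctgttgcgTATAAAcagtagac
gnr1-antisense-1: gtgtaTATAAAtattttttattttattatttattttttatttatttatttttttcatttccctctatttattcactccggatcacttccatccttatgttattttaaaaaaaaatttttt
SPAC890.05-antisense-1: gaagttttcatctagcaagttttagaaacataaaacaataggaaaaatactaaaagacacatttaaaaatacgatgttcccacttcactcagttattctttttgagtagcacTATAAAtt
brl1-antisense-1: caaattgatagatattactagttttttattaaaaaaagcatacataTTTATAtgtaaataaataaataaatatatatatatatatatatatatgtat
cay1-antisense-1: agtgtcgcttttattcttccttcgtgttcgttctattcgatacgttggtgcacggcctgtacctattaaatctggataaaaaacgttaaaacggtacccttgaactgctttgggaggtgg

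SPAC9.08c-antisense-1 and SPAC890.05-antisense-1 have TATAAA close to their start, gnr1-antisense-1 has it near the far end of the run, and the runs of cph1-antisense-1 and cay1-antisense-1 hold no such letters. Among the windows from 250 bases before to 50 bases after the start, 47.6% of the 185 members held TATAAA on either strand, against 45.3% of all 12606 annotated genes and 48.1% of protein-coding genes. CCAAT, on either strand, was in 38.4% of the members' windows and in 44.9% of all genes' windows. These matches describe letters and not binding sites.

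The 185 members were spread over the genome, with 82 on chromosome I, 71 on chromosome II and 32 on chromosome III, and with 96 on the plus and 89 on the minus strand. They were 515 to 4719 bases long with a median of 1808. Of their partners, 183 were protein-coding. The overlap covered a median of 85.9% of the partner, between 13.6% and 100%, and 45 partners were covered in full. At the 5′ side of 120 members the nearest coding gene was transcribed away from the member (divergent) and at 65 it ran in the same direction, at a median distance of 562 bases. Another gene of the same strand overlapped 54 members, so their reads and those of that gene can mix where the annotations meet.

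In wild type, the members had between 5.01 and 69.8 CPM with a median of 9.02 CPM, while their partners had between 0 and 708 CPM with a median of 11.8 CPM. An antisense transcript reached a median of 85.0% of the level of its partner over the 181 pairs with a partner above 0. It exceeded its partner in 80 pairs, was at least 10 times its partner in 24, and at most 10% of it in 12. The 4 remaining partners were listed at 0 in all wild-type libraries. Whether the strand was used in counting is not stated in the sources used here. Of all antisense rows, 13 covered at least 95% of a partner with at least 500 CPM, and these had between 0.00317% and 5.11% of the level of that partner, with a median of 0.11%.

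**Figure D1:**
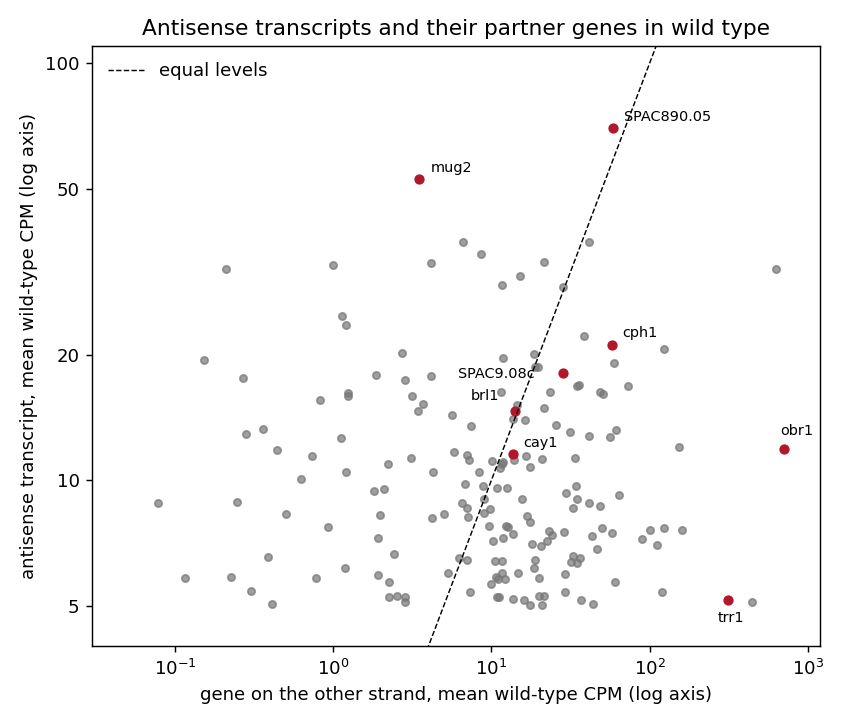
Mean wild-type CPM of the 181 antisense transcripts with a partner above 0 (vertical, log axis) against that of the gene on the other strand (horizontal, log axis), with a dashed line at equal levels. Points above the line have more antisense than partner, the partner levels reach 708 CPM, and the 4 pairs with a partner at 0 are not drawn.

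The most abundant member was SPAC890.05-antisense-1 (SPNCRNA.1042, chrI:5009787-5011504, minus strand), with 69.8 ± 14.0 CPM (SD, n = 8), which covers 70.7% of SPAC890.05 (pxr1), a gene of the PINX1 family in ribosome biogenesis. It was followed by mug2-antisense-1 at 52.8 ± 18.1 CPM, ctr1-antisense-1 at 37.4 ± 15.1 CPM, psf3-antisense-1 at 37.3 ± 12.9 CPM, SPAC926.02-antisense-1 at 34.9 ± 5.39 CPM and sut1-antisense-1 at 33.3 ± 5.68 CPM. Neighbours in this order lay within each other's spread. Their partners differed far more in level, from 3.51 CPM for mug2, a gene of meiosis, to 58.8 CPM for SPAC890.05. The partner psf3, a subunit of the GINS replication complex, had 41.7 CPM. The members just inside the limit were kpa1-antisense-1 at 5.01, ckk2-antisense-1 at 5.03 and mrpl4-antisense-1 at 5.06 CPM. Just outside lay trm5-antisense-1 at 4.94, SPAC23C11.06c-antisense-1 at 4.90 and pby1-antisense-1 at 4.82 CPM, each within the spread of those inside.

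To determine which deletions alter these transcripts, each strain was compared with wild type across all transcripts, and a transcript was called where p did not exceed 0.005 and the log2 fold change was 0.6 or more in either direction. Of the 17390 combinations of member and strain, 17369 could be tested, and 1133 were called, 798 of them higher and 335 lower in the deletion strain. This is 6.52% of the tests, while 3.58% of all 514511 tests over all transcripts were called. Higher calls were 4.59% against 2.1%, and lower calls 1.93% against 1.47%. At a Benjamini–Hochberg adjusted p below 0.05 there were 882 calls, 674 higher and 208 lower, where the share over all transcripts was 2.95%. Of the calls, 70.4% were higher among the members, 59.0% among all transcripts and 47.5% among protein-coding genes. The 450 antisense transcripts under the limit had 5.46% called, 87.7% of them higher, but a transcript near the floor can pass the filter only when it is high in a strain. The 94 comparisons share the 8 wild-type libraries and are not independent. The same libraries set the limit of 5 CPM for the members, which the other transcripts did not have to pass.

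The size of the calls was similar in both directions. The median log2 fold change was 0.99 for the higher calls and -1.04 for the lower ones, with extremes of 2.89 and -2.85. Over all tests, the median was 0.05 for the members and 0.01 for all transcripts. At least 1 call was made for 152 members, of which 68 were only higher, 35 only lower and 49 went in either direction depending on the strain. Of the members, 82.2% were thus called at least once and 26.5% in both directions, against 58.8% and 10.7% of the 5532 transcripts tested. Only higher were 36.8% of the members against 27.9% of these transcripts, and only lower 18.9% against 20.2%. No call was made for 33 members, while 43 (23.2%, all transcripts 11%) were called in at least 10 strains.

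Per strain, a median of 7 members was called. There was no call in 8 strains, and at least 20 in 24 strains. The called share of members was above that of all transcripts in 78 strains. The largest number, 54 members or 29.2%, was found in SPBC16A3.17cΔ, where 14.0% of all transcripts were called. Next were rpl1801Δ with 47 (25.4%, all transcripts 21.6%), the libraries labelled SPBC3E7.05cΔ with 46 (24.9%, all 9.56%), those labelled res2Δ with 39 (21.1%, 37 of them higher and 2 lower, all transcripts 6.55% higher and 3.52% lower) and ssz1Δ with 39 (21.2%, all 13.7%). Direction also differed between strains. In nde2Δ, named for an external NADH dehydrogenase of mitochondria whose gene had 369 CPM there against 368 CPM in wild type and overlapped, all 25 calls were higher (13.5% of the members, while 4.49% of all transcripts were called higher). In moe1Δ, however, 19 of 25 calls were lower (13.6% of the members called, all transcripts 7.32%, of which lower 2.70%, and 14 of 25 with the replicate block), in pek1Δ 13 of 17 (9.2%, all 3.71%, of which lower 2.26%) and in pap1Δ 11 of 11 (5.95%, all transcripts lower 1.41%).

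**Figure D2:**
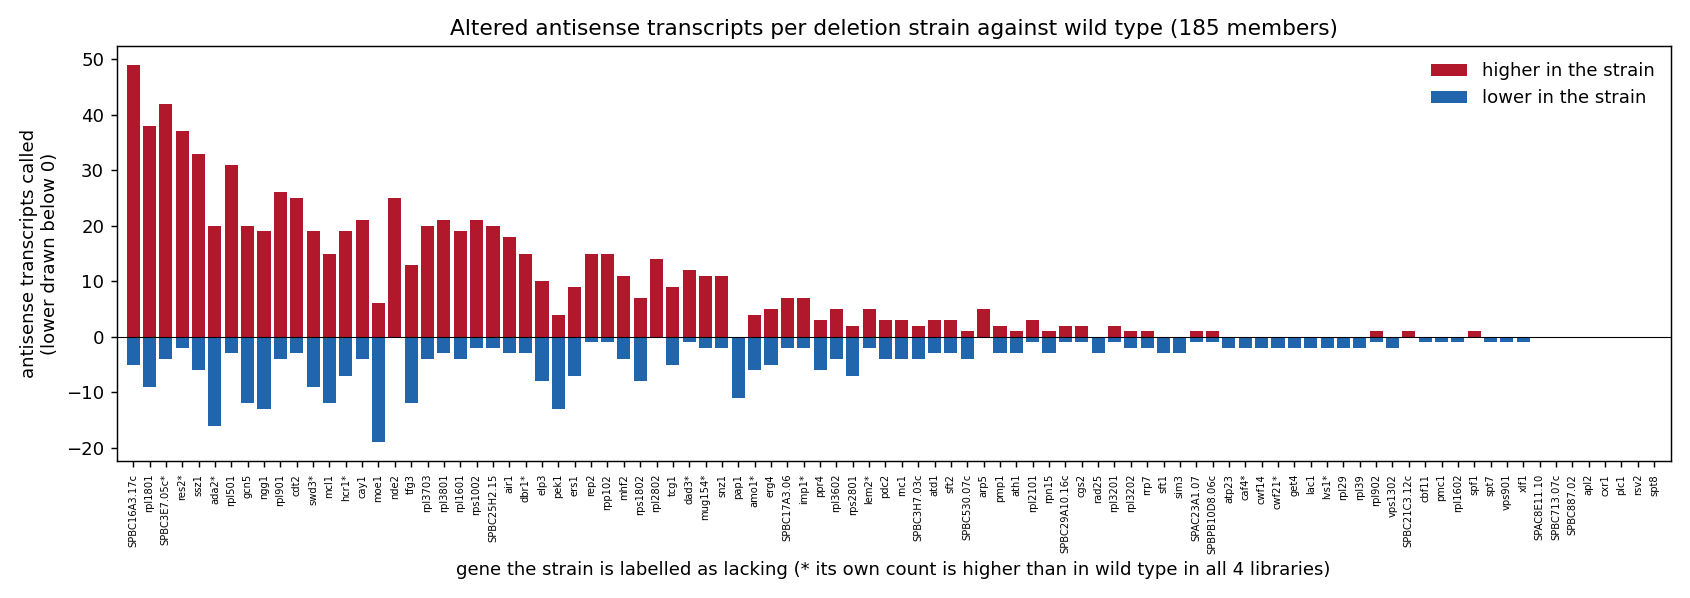
Number of the 185 antisense transcripts called higher (above 0) and lower (below 0) in each deletion strain against wild type, with strains along the horizontal axis. SPBC16A3.17cΔ has 49 higher and 5 lower, nde2Δ 25 higher and 0 lower, and pap1Δ 0 higher and 11 lower, and an asterisk marks the 14 strains whose deleted gene was higher than in wild type in all 4 libraries.

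The 12 members called in most strains were led by cph1-antisense-1 (SPNCRNA.687, chrI:799485-800012, minus strand, 528 bases inside cph1, a PHD finger protein of the Clr6 histone deacetylase complexes). It was called in 44 strains, lower in 35 and higher in 9. Its strain means ranged from 2.48 CPM in rps2801Δ and 3.65 CPM in the libraries labelled ada2Δ to 53.3 CPM in cay1Δ and 62.3 CPM in ers1Δ, while wild type had 21.1 ± 4.84 CPM (SD, n = 8). The median over the strains was 14.1 CPM, below wild type. isp3-antisense-1, over a gene of the spore surface, was lower in 16 strains and higher in 4. For each of the other 10, the median over the 94 strains lay above wild type. It was 13.8 against 9.01 CPM for acr1-antisense-1 and 19.6 against 16.2 CPM for swi10-antisense-1. How much of the calls follows from the position of the shared wild-type libraries was not tested. These 10 went nearly always up against wild type. They were brl1-antisense-1 (26 higher, 1 lower, in mcl1Δ), SPAC10F6.15-antisense-1 (24 higher), acr1-antisense-1 and SPAC6C3.03c-antisense-1 (23 higher each), mfs1-antisense-1 (22 higher), ctf8-antisense-1 (20 higher and 1 lower, in moe1Δ), SPAC890.05-antisense-1 (21 higher), pex14-antisense-1 and SPAC24B11.14-antisense-1 (20 higher each) and swi10-antisense-1 (19 higher). The last place was a tie of 6 members called in 19 strains, settled by the smaller median p, and psf3-antisense-1, sec16-antisense-1 and vrs2-antisense-1 (19 higher each), fmd2-antisense-1 (18 higher, 1 lower) and SPAC9.08c-antisense-1 (19 lower) were the others. Their partners have unrelated roles, among them an H2B ubiquitin ligase (brl1), an RNA polymerase I factor (acr1), a membrane transporter (mfs1), a replication factor C subunit (ctf8), a peroxisomal import protein (pex14) and a DNA repair nuclease subunit (swi10).

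**Figure D3:**
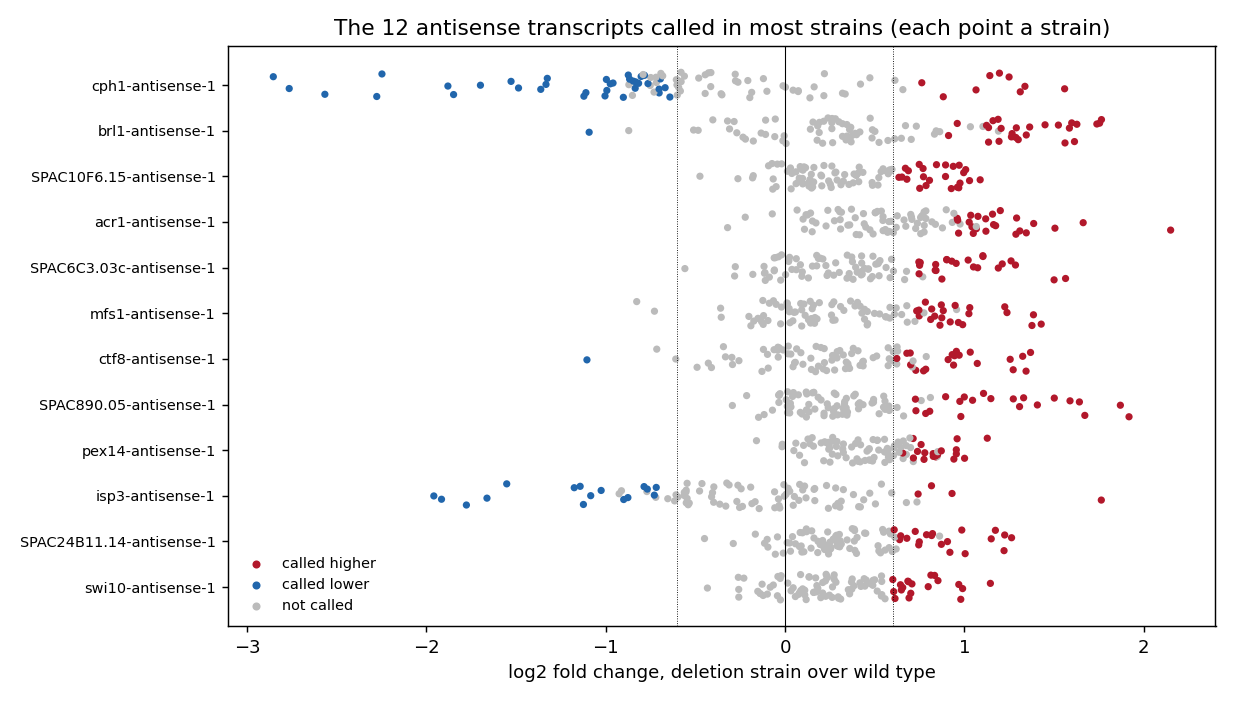
Log2 fold change (deletion strain over wild type) of the 12 antisense transcripts called in most strains, each point a strain, coloured by call, where swi10-antisense-1 is shown for 6 members tied at 19 strains. The points of cph1-antisense-1 reach from -2.85 in rps2801Δ to 1.56 in ers1Δ, and those of the other members except isp3-antisense-1 are called almost only to the right of 0. All points share the same wild-type libraries.

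SAGA is a transcriptional coactivator whose Gcn5 subunit acetylates histone H3 and works with Ada2 and Ngg1, while Spt8 contacts the TATA-binding protein and Spt7 holds the complex together. Among the members, 36 (19.7%, all transcripts 6.84%) were called in the libraries labelled ada2Δ, 32 (17.5%, all 7.58%) in gcn5Δ and 32 (17.3%, all 6.08%) in ngg1Δ. In contrast, 1 (0.541%, all 0.643%) was called in spt7Δ and 0 in spt8Δ (all 0.402%). With the replicate block these were 3 and 2. The strain labelled ada2Δ had 79.9 CPM of ada2 (64.6 to 103) against 42.4 CPM (29.5 to 52.6) in wild type, so its direction rests on the label. The count of gcn5 was 30.0 CPM (13.4 to 46.2) in gcn5Δ and 15.3 CPM in wild type and overlapped, and that of ngg1 was 24.7 CPM (19.8 to 28.7) in ngg1Δ and 37.4 CPM (27.5 to 48.4) in wild type. The levels of spt7 (36.5 CPM in spt7Δ, 38.9 CPM in wild type) and of spt8 (30.9 CPM in spt8Δ, 38.7 CPM in wild type) gave no separation either.

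Nearly undetected in these strains was SPAC9.08c-antisense-1 (SPNCRNA.742, chrI:1476731-1478449, plus strand), which covers the whole of SPAC9.08c, a predicted steroid reductase. It had 1.41, 0.705, 0 and 0.671 CPM in the libraries labelled ada2Δ, 1.25, 1.70, 0 and 0 CPM in gcn5Δ and 1.86, 4.55, 1.30 and 4.35 CPM in ngg1Δ, against 12.127 to 21.2 CPM (median 19.2) in wild type. All these libraries lay below wild type, and no group of 4 overlapped with it (exact permutation test, two-sided p = 0.00202, the smallest that 4 against 8 libraries allow). With 4, 6 and 20 reads in total, the levels were 3.84% (95% Poisson interval 1.05% to 9.84%), 4.1% (1.49% to 8.85%) and 16.7% (10.17% to 25.7%) of wild type in the libraries labelled ada2Δ, in gcn5Δ and in ngg1Δ, intervals that cover counting error of the strain only. The log2 fold change in ngg1Δ was -2.76 (SE 0.31, adjusted p = 0.000309), and the other strains had too few values above the floor for a fit. In spt7Δ it had 12.2, 11.5, 21.5 and 7.64 CPM and in spt8Δ 14.9, 12.5, 15.5 and 17.7 CPM, which overlap with wild type.

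The partner SPAC9.08c went the other way in the same strains. It had 93.6, 71.9, 79.5 and 63.8 CPM in the libraries labelled ada2Δ, 83.7, 70.1, 78.1 and 67.0 CPM in gcn5Δ and 86.1, 96.9, 66.5 and 66.9 CPM in ngg1Δ, against 17.04 to 40.4 CPM in wild type. The log2 fold changes were 1.497, 1.459 and 1.528 (adjusted p = 0.00162, 0.0014 and 0.002). Over all strains, the antisense transcript was called lower in 19 and the sense gene higher in 8, and both calls fell together in 6 strains, ngg1Δ, cdt2Δ, mcl1Δ, pek1Δ, pap1Δ and ppr4Δ. In mcl1Δ the antisense fell by 1.73 on the log2 scale and SPAC9.08c was 2.30 higher. In ath1Δ, however, the antisense had 3.47, 2.67, 7.031 and 4.24 CPM (log2 fold change -2.12, SE 0.24, adjusted p = 0.000899), while SPAC9.08c, at 43.5 CPM against 28.2 CPM in wild type, was not called (adjusted p = 0.196). The antisense shares 67 bases on its own strand with met26, a methionine synthase gene, which was not called in the SAGA strains, pap1Δ or ath1Δ.

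gnr1-antisense-1 (SPNCRNA.1158, chrIII:765556-767481, plus strand) covers 96.3% of gnr1, which encodes a G protein beta subunit. It had 7.04, 6.34, 4.97 and 4.70 CPM in the libraries labelled ada2Δ, 9.99, 3.39, 4.48 and 4.15 CPM in gcn5Δ and 6.82, 7.15, 5.86 and 7.07 CPM in ngg1Δ, all below the 13.1 to 22.7 CPM (median 17.6) of wild type. The log2 fold changes were -1.62, -1.80 and -1.38, with adjusted p = 0.000225, 0.000877 and 0.000568. gnr1 itself averaged 13.4, 16.5 and 8.85 CPM in these strains, against 4.15 ± 2.81 CPM (SD, n = 8) in wild type, and was called higher in the libraries labelled ada2Δ (log2 fold change 2.00, adjusted p = 0.0278) and in gcn5Δ (2.23, adjusted p = 0.0194) but not in ngg1Δ (0.86, adjusted p = 0.463).

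cph1-antisense-1 had 2.111, 4.23, 3.55 and 4.70 CPM in the libraries labelled ada2Δ, 2.50, 1.13, 6.40 and 4.74 CPM in gcn5Δ and 3.10, 9.10, 7.17 and 8.16 CPM in ngg1Δ, against 14.7 to 30.8 CPM in wild type. The log2 fold changes were -2.57 (SE 0.22), -2.76 (SE 0.36) and -1.70 (SE 0.26), with adjusted p = 2.76e-05, 0.000421 and 0.00215. The gene cph1, on the other strand, was not called in any of them, with its largest log2 fold change, -0.56 (adjusted p = 0.0325), in gcn5Δ. In spt7Δ the antisense had 12.2, 21.6, 9.33 and 8.28 CPM, a log2 fold change of -0.79 that was not called (adjusted p = 0.54). It was called with the replicate block (-0.95), without replicate 2 (-1.08) and without wild-type replicate 4 of well A1 (-0.86). In spt8Δ it had 15.4, 17.1, 22.7 and 14.2 CPM (-0.28, adjusted p = 0.998).

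At 2 loci the antisense transcript and its partner were both lower. isp3-antisense-1 had 2.4, 2.1 and 2.1 CPM on average in the libraries labelled ada2Δ, in gcn5Δ and in ngg1Δ, against 5.77 to 10.13 CPM in wild type (log2 fold changes -1.78, -1.92 and -1.96), and isp3 had log2 fold changes of -1.07, -0.72 and -0.81, where that of gcn5Δ was not called. obr1-antisense-1 covers all of obr1, a quinone NAD(P)H oxidoreductase, and fell by 0.84, 1.21 and 1.23 on the log2 scale. obr1 averaged 105, 127 and 204 CPM in these strains, against 708 ± 280 CPM (SD, n = 8) in wild type, and its log2 fold changes were -2.70, -2.67 and -1.77 (adjusted p = 0.00012, 0.00115 and 0.00437). nup120-antisense-1, over the 3′ part of a nucleoporin gene, was also lower, with 5.95, 6.47 and 7.06 CPM against 22.2 ± 11.5 CPM (SD, n = 8), while nup120 was not called.

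Other members were higher in the same strains. SPAPB15E9.02c-antisense-1 (SPNCRNA.954, chrI:3991342-3993560, plus strand) had 61.9, 50.1, 108 and 85.9 CPM in the libraries labelled ada2Δ, 64.1, 71.8, 149 and 59.3 CPM in gcn5Δ and 60.1, 41.0, 84.7 and 53.3 CPM in ngg1Δ, against 7.83 to 29.5 CPM in wild type. These libraries all lay above wild type, with log2 fold changes of 2.23, 2.36 and 1.89 and adjusted p = 0.000974, 0.000839 and 0.00328. In spt7Δ it had 7.74, 16.2, 11.5 and 10.19 CPM and in spt8Δ 12.5, 18.2, 19.9 and 9.12 CPM, within the range of wild type or, in spt7Δ, slightly below it. SPAPB15E9.06, a gene that shares 66 bases with it on the same strand, was not called in any of the 5 strains. ucp7-antisense-1, opposite a gene with UBA, TPR and DnaJ domains, averaged 42.4, 38.5 and 33.5 CPM, against 14.4 ± 3.26 CPM (SD, n = 8) in wild type, with log2 fold changes of 1.58, 1.44 and 1.24 (adjusted p = 0.000268, 0.000357 and 0.00152). These members were chosen for display after their values were seen.

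**Figure D4:**
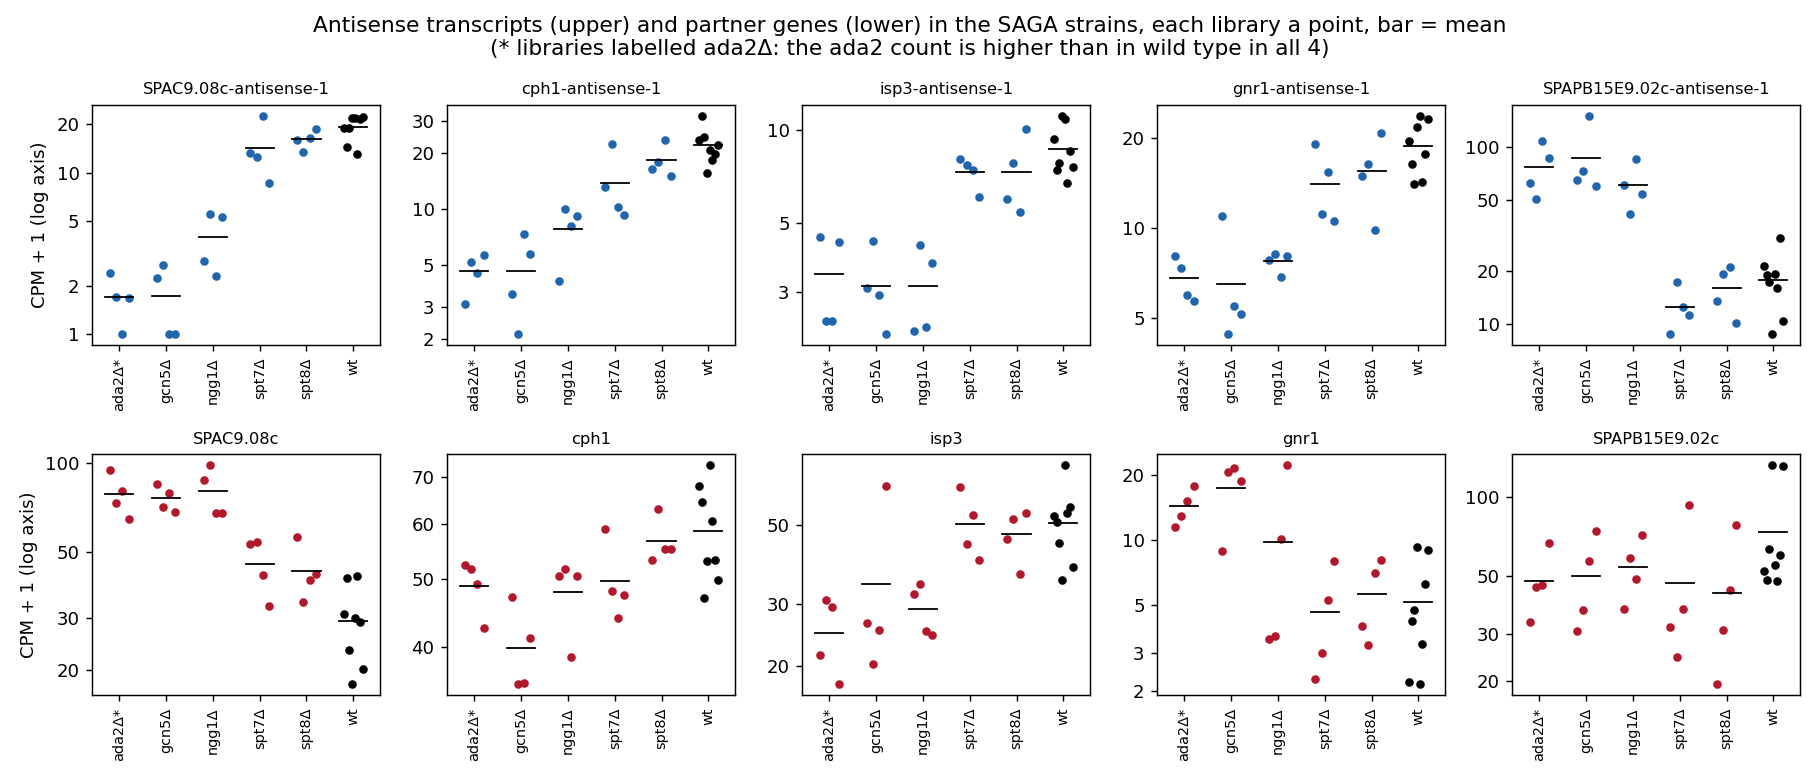
CPM + 1 (log axis) of 5 antisense transcripts (upper row) and of the gene on the other strand (lower row) in the libraries of ada2Δ, gcn5Δ, ngg1Δ, spt7Δ, spt8Δ and wild type, each point a library and each bar a mean. The antisense of SPAC9.08c, cph1, isp3 and gnr1 is low and that of SPAPB15E9.02c high in the first 3 strains, while spt7Δ and spt8Δ lie near wild type, and the asterisk marks the libraries labelled ada2Δ.

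The strains were also compared with each other directly, without wild type. Against spt8Δ, 14 members were higher and 13 lower in the libraries labelled ada2Δ (all transcripts 4.66% called), 17 higher and 12 lower in gcn5Δ (all 4.82%) and 10 higher and 11 lower in ngg1Δ (all 3.96%), of 183 to 185 members tested. SPAPB15E9.02c-antisense-1 was higher by 2.36 (SE 0.31, adjusted p = 0.00604), 2.49 (SE 0.34, adjusted p = 0.00759) and 2.02 (SE 0.30, adjusted p = 0.0131) on the log2 scale in the libraries labelled ada2Δ, in gcn5Δ and in ngg1Δ than in spt8Δ. Against spt8Δ, cph1-antisense-1 had log2 fold changes of -2.29 (adjusted p = 0.00325), -2.49 (adjusted p = 0.0262) and -1.42, the last of which did not pass at the adjusted p (0.0787). For SPAC9.08c-antisense-1, ngg1Δ differed from spt8Δ by -2.52 (SE 0.39, adjusted p = 0.0151). Against spt7Δ, 12 members were higher and 5 lower in the libraries labelled ada2Δ (all transcripts 3.32%), 14 higher and 4 lower in gcn5Δ (all 3.86%) and 13 higher and 7 lower in ngg1Δ (all 2.85%). SPAPB15E9.02c-antisense-1 was higher than in spt7Δ by 2.73, 2.86 and 2.39 on the log2 scale in the libraries labelled ada2Δ, in gcn5Δ and in ngg1Δ (adjusted p = 0.00458, 0.00428 and 0.00965). For cph1-antisense-1 the log2 fold changes over spt7Δ were -1.77 (adjusted p = 0.0482), -1.97 (adjusted p = 0.114) and -0.91 (adjusted p = 0.436), and for SPAC9.08c-antisense-1 in ngg1Δ -2.23 (adjusted p = 0.0642), so that only the first of these 4 passed at the adjusted p. nup120-antisense-1 passed over spt8Δ but was not called over spt7Δ (adjusted p = 0.208, 0.224 and 0.401). gnr1-antisense-1 passed only in the libraries labelled ada2Δ over spt8Δ (adjusted p = 0.0334). isp3-antisense-1 passed in gcn5Δ only, over spt8Δ (adjusted p = 0.0399) and over spt7Δ (0.0315). ucp7-antisense-1 passed in every such test (adjusted p = 0.00512 to 0.0241).

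In 6 strains grouped under transcription factors and their regulators (cbf11, pap1, res2, rep2, tfg3, tcg1), 106 calls were made on the members, 74 higher and 32 lower (9.56%, all transcripts 4.30%). tcg1 was counted with this group by its list only, and such a role is not claimed for it. The calls ranged from 1 to 39 a strain. The libraries labelled res2Δ, for a subunit of the MBF complex of the G1–S transition, had 37 higher and 2 lower, and res2 had 30.1 CPM in them against 5.46 CPM in wild type. SPAC890.05-antisense-1 reached 180, 292, 261 and 154 CPM there, against 51.3 to 92.7 CPM in wild type (log2 fold change 1.64, SE 0.20, adjusted p = 0.000342), and SPAC890.05 was 0.71 higher on the log2 scale (adjusted p = 0.038). sec16-antisense-1, over a gene of the COPII vesicle coat, had 27.8, 40.8, 44.9 and 26.7 CPM, above the 8.98 to 17.4 CPM of wild type (1.46, adjusted p = 0.000544). mis18-antisense-1, over a kinetochore gene, was 1.08 higher (adjusted p = 0.000789), while mis18 was not called. Of the 37 higher members, 1 had the letters ACGCGT, known from MBF sites, within 250 bases before to 50 after its start (2.70%, all annotated genes 2.46%).

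The members did not move one way in all these strains. swi10-antisense-1 was higher in 4 of the 6, with log2 fold changes of 0.97 in the libraries labelled res2Δ, 0.81 in tfg3Δ, 0.83 in tcg1Δ and 0.64 in rep2Δ, where the last had an adjusted p of 0.107. With the other 93 strains as the reference, the calls in tfg3Δ (0.52), tcg1Δ (0.54) and rep2Δ (0.35) were lost. That in tfg3Δ was also lost with wild type of well A2 only (0.75). The call in rep2Δ was lost with either well alone, without replicate 3 (0.50) and without wild-type replicate 1 of well A1 (0.59). In rep2Δ, 16 members were called (8.65%, all transcripts 2.20%), but only 1 at the adjusted p. Of the 25 calls in tfg3Δ (13.5%, all 4.82%), 13 were higher and 12 lower.

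In pap1Δ, named for a bZIP factor of the oxidative stress response, the 11 calls were all lower. At the adjusted p, 4 of these passed. SPAC9.08c-antisense-1 had 4.48, 5.22, 5.77 and 6.48 CPM in pap1Δ, against 12.127 to 21.2 CPM in wild type (log2 fold change -1.71, SE 0.18, adjusted p = 0.00108), and SPAC9.08c was 1.19 higher (adjusted p = 0.0382). SPAC688.12c-antisense-1 had 6.48, 7.31, 8.66 and 6.98 CPM, against 10.4 to 20.4 CPM (-1.11, adjusted p = 0.0137), and pof9-antisense-1 had 8.47, 8.87, 9.24 and 12.0 CPM, against 15.0 to 25.7 CPM (-1.05, adjusted p = 0.0142). The fourth was gnr1-antisense-1 (-0.84, adjusted p = 0.0476). The partners SPAC688.12c, pof9 (an F-box protein) and gnr1 were not called. The other 7, of which hsp3102-antisense-1, end4-antisense-1 and isp3-antisense-1 had the largest log2 fold changes (-1.13, -1.47 and -1.08), passed the unadjusted threshold only. pap1 itself had 65.9 CPM in pap1Δ and 62.7 CPM in wild type. None of the 11 had TTACGTAA, a palindrome known from sites of Pap1, in the window around its start, while 1.08% of the members and 0.516% of all genes had it.

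Air1, Dbr1, Pdc2, Rnc1, Cwf14 and Ers1 act in RNA surveillance, lariat debranching, decapping, mRNA binding, splicing and RNA interference. Among the 6 strains labelled as lacking them, only rnc1Δ had its deleted gene lower in all 4 libraries than in wild type. The gene overlapped with wild type in pdc2Δ (101 against 80.9 CPM), cwf14Δ (65.9 against 62.8 CPM) and ers1Δ (12.2 against 9.60 CPM). It was higher in the libraries labelled dbr1Δ (116 against 16.1 CPM). Over these 6 strains, 71 calls were made (6.40%, all transcripts 3.23%), 48 higher and 23 lower. The largest number was in air1Δ, named for a subunit of the TRAMP complex that feeds RNAs to the exosome, with 18 higher and 3 lower (11.4%, all 3.88%). The air1 level itself, 13.4 CPM in air1Δ and 13.5 CPM in wild type, overlapped. The libraries labelled dbr1Δ had 15 higher and 3 lower (9.73%, all 4.79%) and ers1Δ had 9 higher and 7 lower (8.65%, all 4.99%). With the replicate block, ers1Δ had 12 higher and 12 lower. cwf28-antisense-1 (SPNCRNA.1653, chrII:3991620-3993214, plus strand), opposite a splicing factor gene, changed most in this group. It had 39.4, 36.6, 21.8 and 32.8 CPM in ers1Δ (log2 fold change 2.70, SE 0.41, adjusted p = 0.00286) and 25.8, 31.2, 24.01 and 20.1 CPM in air1Δ (2.34, SE 0.41, adjusted p = 0.00757), against 2.76 to 12.127 CPM (median 3.91) in wild type. In the libraries labelled dbr1Δ it had 26.1, 23.1, 9.66 and 14.7 CPM (1.80, adjusted p = 0.0451), which overlap with wild type. This call was lost with wild type of well A2 only (1.49), without replicate 1 (1.59) and without replicate 2 (1.65). cwf28 was not called in ers1Δ, air1Δ or the libraries labelled dbr1Δ. On its own strand the antisense shares 66 bases with fes1, a nucleotide exchange factor of Hsp70, which was called higher in ers1Δ (1.075, adjusted p = 0.0203) but not in air1Δ or the libraries labelled dbr1Δ. The part of fes1 in the result was not tested. pex14-antisense-1 was called higher in 4 of the 6 strains.

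In the group of chromatin and nuclear envelope genes (swd3, arp5, lem2, amo1), 50 calls were made (6.76%, all transcripts 3.27%), 33 higher and 17 lower. The libraries labelled swd3Δ, for a subunit of the Set1 histone H3K4 methyltransferase, had 28 of them, 19 higher and 9 lower (15.1%, all 4.53%), with swd3 at 9.15 CPM against 2.28 CPM in wild type. cwf28-antisense-1 had 21.4, 26.7, 16.2 and 19.6 CPM in them (log2 fold change 2.07, SE 0.41, adjusted p = 0.0184). In arp5Δ, named for a subunit of the Ino80 remodeller and with 33.7 CPM of arp5 against 37.0 CPM in wild type, the 5 calls (2.70%, all transcripts higher 0.857%) were all higher and none passed at the adjusted p. There, acr1-antisense-1 had 91.3, 27.4, 31.2 and 25.5 CPM, against 4.78 to 14.8 CPM in wild type (log2 fold change 2.1502, SE 0.36, adjusted p = 0.242). The library of arp5Δ with replicate number 1 was the highest for cwf28-antisense-1 too, at 32.9 CPM beside 12.7, 10.4 and 10.22 CPM, and its log2 fold change of 1.56 (adjusted p = 0.406) was 1.17 and no longer called without that library. This call was also lost with the replicate block (1.55) and under 12 alternatives in all, among them leaving out any of the 4 libraries.

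In 19 strains labelled as lacking a cytosolic ribosomal protein, 226 members were called higher and 59 lower, counted per strain. This is 8.1%, where 5.64% of all transcripts were called, and 79.3% of the calls were higher against 54.8% of those over all transcripts. The deleted gene overlapped with wild type in rpl39Δ (4703 against 4941 CPM), rps1802Δ, rpl3201Δ, rpl1602Δ and rpl2101Δ, and was lower in all 4 libraries in the rest. The number of calls ranged from 1 to 47 per strain and was largest in rpl1801Δ, in which rpl1801 itself had 349 CPM against 3564 CPM in wild type. Here SPBC3B8.03-antisense-1 (lys9, saccharopine dehydrogenase of lysine synthesis, on the other strand) had 93.5, 67.7, 89.6 and 64.9 CPM, against 26.2 to 40.4 CPM in wild type (log2 fold change 1.29, SE 0.15, adjusted p = 7.4e-05). SPBC3B8.03 had 269, 210, 242 and 295 CPM, against 566 to 720 CPM in wild type (-1.31, adjusted p = 1.86e-05). The pair was called in opposite directions, antisense higher and gene lower, in 11 strains. mis18-antisense-1 and SPAC24B11.14-antisense-1 were 1.29 and 1.26 higher in rpl1801Δ (adjusted p = 0.000104 and 0.000123).

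brl1-antisense-1 (SPNCRNA.1276, chrIII:2239857-2242131, minus strand) lies inside brl1 along its whole length, and was higher in 9 of the 19 ribosomal protein strains. Their means were 33.1 to 49.0 CPM, against 14.7 ± 6.20 CPM (SD, n = 8) in wild type. In rpp102Δ it had 39.3, 35.3, 42.1 and 79.2 CPM (log2 fold change 1.75, SE 0.29, adjusted p = 0.00516). The library with replicate number 4 was the highest in all 9 strains, and in wild type the libraries numbered 4 had 23.03 and 25.9 CPM while the other 6 had 9.82 to 13.4 CPM. Within each replicate number, the 9 strains had 1.82 to 4.44 times the wild-type level. brl1 was not called in any strain. In rpl1601Δ and rpl3602Δ, the 4 libraries overlapped with wild type, and without replicate number 4 these log2 fold changes were 0.81 and 0.80 and no longer called. In ssz1Δ, which lacks a ribosome-associated Hsp70, it had 43.9, 35.6, 50.04 and 60.9 CPM (1.76, SE 0.27, adjusted p = 0.000771).

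In ssz1Δ, which had 70.5 CPM of ssz1 against 428 CPM in wild type, efg1-antisense-1 had 19.1, 16.96, 21.8 and 20.3 CPM, above the 5.13 to 7.99 CPM of wild type (log2 fold change 1.64, SE 0.15, adjusted p = 1.73e-05). It lies within efg1, a gene of rRNA processing, whose log2 fold change was 0.75 (adjusted p = 0.0478) without passing the unadjusted limit used for calls. cph1-antisense-1 had 9.56, 2.74, 2.66 and 5.17 CPM (-2.25, adjusted p = 0.000388), and cph1 was 0.67 lower (log2 fold change -0.67, adjusted p = 0.0201).

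The strain with most calls, SPBC16A3.17cΔ, is labelled as lacking a membrane transporter of the major facilitator family, and its deleted gene had 38.1 CPM against 33.7 CPM in wild type and overlapped. fmd2-antisense-1, opposite a formaldehyde dehydrogenase gene, had 27.8, 21.8, 24.8 and 20.5 CPM, against 4.35 to 7.57 CPM in wild type (log2 fold change 2.148, SE 0.16, adjusted p = 3.84e-06), while fmd2 was not called. SPAC890.05-antisense-1 had 362, 210, 232 and 257 CPM, against 51.3 to 92.7 CPM (1.92, SE 0.19, adjusted p = 2.32e-05), and SPAC890.05 averaged 117 CPM against 58.8 CPM (1.02, adjusted p = 0.00689). sec16-antisense-1 had 50.6, 33.8, 30.0 and 29.3 CPM, against 8.98 to 17.4 CPM (1.49, SE 0.20, adjusted p = 0.000226), and its partner sec16 was lower (-0.66, adjusted p = 0.0188). A noncoding RNA that shares 4 bases with it on the same strand, SPNCRNA.1083, was 0.82 higher (adjusted p = 0.00686).

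In the libraries labelled SPBC3E7.05cΔ, for a Mic60 protein of mitochondria whose gene had 51.6 CPM there and 31.1 CPM in wild type, fmd2-antisense-1 (20.5, 27.5, 24.8 and 18.2 CPM, log2 fold change 2.079), SPAC890.05-antisense-1 (223, 250, 211 and 195 CPM, 1.67) and mfs1-antisense-1 (15.8, 24.4, 19.1 and 16.04 CPM, 1.43) all lay above every wild-type library. Their partners had log2 fold changes of 0.67, 0.55 and 0.77 and adjusted p = 0.226, 0.232 and 0.0591. In the libraries labelled mug154Δ, with 13 calls (7.0%, all 4.1%), SPAC890.05-antisense-1 had 334, 261, 208 and 218 CPM (log2 fold change 1.87, SE 0.18, adjusted p = 3.58e-05), and SPAC890.05 had 62.4 CPM against 58.8 CPM in wild type (0.07, adjusted p = 0.932).

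For 1 member, the gene on the other strand was itself deleted in the study. cay1-antisense-1 (SPNCRNA.1456, chrII:1713002-1714577, minus strand) lies within cay1, the gene of the splicing-related protein cactin. In cay1Δ, cay1 had 3.125, 2.95, 5.07 and 4.28 CPM, against 7.51 to 17.96 CPM in wild type (log2 fold change -1.80, adjusted p = 0.000618). cay1-antisense-1 had 21.2, 51.3, 30.4 and 19.5 CPM, against 6.91 to 18.6 CPM (median 12.3) in wild type, with no overlap (1.38, SE 0.31, adjusted p = 0.0183). The exact permutation test gave p = 0.00202, two-sided. This was the highest mean of all strains, followed by 19.7 CPM in mcl1Δ, and the only call of this transcript. The deletion removes the coding region of cay1, and where in the locus the antisense reads came from was not tested.

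To ask how often a partner moved with its antisense transcript, the calls of both were set side by side. Beside the 798 higher antisense calls, the partner was higher in 33, lower in 25, not called in 608 and not tested in 132. Beside the 335 lower calls, it was higher in 17, lower in 25, not called in 252 and not tested in 41. Of the tested partners, 8.71% were called beside a higher and 14.3% beside a lower antisense, while 3.41% of all partner tests were called. Over the strains, the called shares of members and of all transcripts rose together (Pearson r = 0.90). Antisense calls thus tended to lie in strains with many calls, and the 3.41%, taken over all strains alike, is not matched to them. How much of the difference comes from this was not tested. The 33 combinations with both higher came from 16 members, 9 of them from SPAC890.05, and the 25 with both lower from 7 members. Among opposite calls, the 25 with the antisense higher came from 10 members, led by SPBC3B8.03 with 11 and sec16 with 4, and the 17 with the antisense lower from 10 members, led by SPAC9.08c with 6.

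Over the 94 strain means, the median Pearson correlation (log2 CPM) between a member and its partner was 0.02, with quartiles of -0.17 and 0.22, and 9 pairs were above 0.5 and 6 below -0.5. Both values of a pair come from the same libraries. The highest correlations were those of SPAC890.05 (0.79), cph1 (0.78), obr1 (0.77), isp3 (0.67) and SPAC1093.07 (0.62). The lowest were those of SPAC9.08c (-0.77), trr1 (-0.63), SPBC3B8.03 (-0.60), srm1 (-0.53) and gnr1 (-0.52), of which trr1 encodes thioredoxin reductase and srm1 spermidine synthase. In the plot of pairs over strains, a strain with a low antisense has a high SPAC9.08c, whereas obr1 and its antisense fall together. Correlations with the nearest coding gene at the 5′ side had a median of 0.06. For brl1-antisense-1, the correlation was 0.77 with pep3, a divergent gene 115 bases from its start, and -0.17 with brl1.

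**Figure D5:**
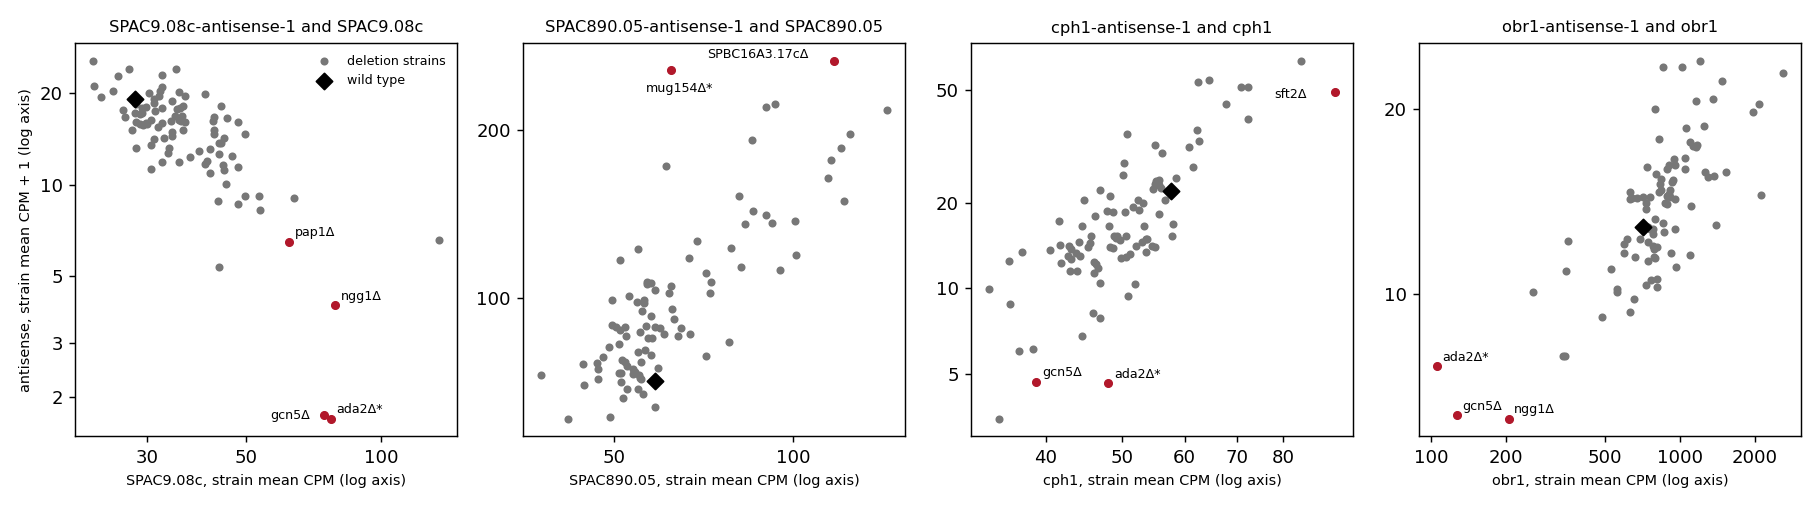
Strain mean CPM + 1 of the antisense transcript (vertical, log axis) against the strain mean CPM of the gene on the other strand (horizontal, log axis) for SPAC9.08c, SPAC890.05, cph1 and obr1, with 94 deletion strains as circles and wild type as a diamond. The points fall from left to right for SPAC9.08c (Pearson r = -0.77 over the strains) and rise for SPAC890.05 (0.79), cph1 (0.78) and obr1 (0.77).

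Finally, 24 genes known to restrain or remove antisense RNA were followed through the strains, such as exosome and TRAMP subunits, RNA interference factors and chromatin regulators. Of 2256 tests, 13 were called higher and 9 lower (0.975%, all transcripts 3.58%), or 36 in all with the replicate block, and the calls fell on 7 genes. rrp6, the nuclear exosome exonuclease, was higher in 7 strains, namely in the libraries labelled res2Δ and in rpl501Δ, ssz1Δ, rpl3703Δ, rpl1801Δ, rpl3801Δ and rps1002Δ. air1 was higher in 4 strains, and rdp1, an RNA-dependent RNA polymerase, in 1 (mcl1Δ). cph1 was higher in 1 (sft2Δ) and lower in 6. ago1, set2 and hip1 were each lower in 1. The other 17, including dis3, mtl1, dcr1, clr4 and mmi1, were not called in any strain by this test.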

How the data were processed

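The 384 libraries of 94 deletion strains and wild type were prepared with the Lexogen 3′ mRNA-Seq FWD HT kit, sequenced, aligned by the authors to the genome ASM294v2 (gene model ASM294v2.40) and counted on genes. Reads were aligned with STAR 2.6.1b according to the submitters' processing notes, which also list Subread 1.6.2, SAMtools 1.5 and HTSeq 0.9.0. Which of these counted is not given in the sources used here. The deposited values are CPM, for 7259 genes, but every value of 1 or more had lost its decimal point, so their unit was recorded as other. Values under 1 give the CPM of 1 read, and each lost point (78.8% of 2787456 values) was restored to the position that gives a whole number of reads. For the 10.3% with several such positions, the other libraries of the strain and the frequency of larger values decided. No value stayed unresolved, 2412 had a close alternative, and 721 moved when the strain was not used. The depth ranged from 1337512 to 2659644 reads on genes per library.

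Values under 1.006722 CPM, the floor of the authors' methods, were removed, and a transcript was kept with 3 of 4 values in the strain and 6 of 8 in wild type. None was imputed. No pseudocount was added, and each strain was fitted against wild type on the log2 scale with limma 3.58.1 in R 4.3.3 over all kept transcripts. Calls needed p not above 0.005 and a log2 fold change of 0.6 or more in either direction. Adjusted p-values are Benjamini–Hochberg over all transcripts of that fit. For single values, an exact permutation test over the 495 splits of 4 against 8 libraries was used on log2(CPM + 1), two-sided, with 0.00202 as the smallest p. Restoring and fit were tested on simulated data. Deviations of same-numbered libraries from their group means correlated with a median of 0.308 over 4593 transcripts and 376 correlations. In 80 of 94 strains every pair was above 0.1, so there the replicate numbers were taken to pair strain and wild type. No label names the replicate number a plate, and each deletion strain had the same well under every number. Wild-type libraries of well A2 shared replicate number 2. The correlations and the replicate block left these out and used 6 wild-type libraries. No libraries of a group were duplicates, since the lowest mean chi-square per gene between libraries of a group, over genes with at least 10 reads, was 1.40.

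The partner is the gene in the antisense name (110 members), found by identifier (71) or, where neither matched, by position (4). Sequences come from RefSeq (ASM294v3). Overlaps and neighbouring genes were computed from the positions in the deposited table, with gene types from RefSeq. Named were the 12 members called in most strains, the 3 with the smallest p and no overlap with wild type in each of the 5 strains with most calls, the 6 highest in wild type, the 3 on each side of the limit, members whose partner was deleted, the 5 pairs with the highest and the 5 with the lowest correlation, and per group of strains the member with the largest median change among those called in at least 2 of them. Further transcripts in the SAGA strains, pap1Δ, ath1Δ and the libraries labelled mug154Δ were added after their values were seen. The members and lists were chosen with earlier results of these data known. Alternatives were the floor, pseudocount, centring, reference libraries, partner rule, limits, leaving out libraries and a replicate block.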

Additional observations from a re-analysis of the deposited data

Results flagged for a closer look

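Of 128 groups of 4 to 8 libraries examined for a library that stands apart, 14 had one (10.9%), where chance flags about 5% of groups. For brl1-antisense-1 this was the library with replicate number 4 in 5 ribosomal protein strains, with 77.0 CPM in rpl3703Δ, 72.8 in rpl1801Δ, 79.2 in rpp102Δ, 66.9 in rpl3801Δ and 59.9 in rpl1601Δ. In wild type, too, both libraries numbered 4 were the highest for this transcript. In arp5Δ the library with replicate number 1 stood apart for acr1-antisense-1 (91.3 CPM) and for cwf28-antisense-1 (32.9 CPM). In gcn5Δ the highest library was far from the others for SPAPB15E9.02c-antisense-1 (149.1 CPM) and for gnr1-antisense-1 (9.99 CPM), and in ssz1Δ for SPAC24B11.14-antisense-1 (14.9 CPM). In pap1Δ the lowest library of trr1-antisense-1 had 1.57 CPM. In wild type, 1 library stood apart for ctf8-antisense-1 (4.23 CPM, the lowest), SPAC24B11.14-antisense-1 (7.58 CPM, the highest) and SPAC926.02-antisense-1 (22.6 CPM, the lowest).

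Direct tests between SAGA strains gave differences in response over spt8Δ that did not all hold over spt7Δ. In ngg1Δ over spt7Δ, SPAC9.08c-antisense-1 did not pass at the adjusted p (0.0642). nup120-antisense-1 was not called over spt7Δ in the libraries labelled ada2Δ, in gcn5Δ or in ngg1Δ. SPAPB15E9.02c-antisense-1 was 2.36, 2.49 and 2.02 higher on the log2 scale in the libraries labelled ada2Δ, in gcn5Δ and in ngg1Δ than in spt8Δ, and SPAC9.08c-antisense-1 had a log2 fold change of -2.52 in ngg1Δ over spt8Δ. Causes were not tested.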

How the results depend on the processing

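The count of 1133 calls on the members was 719 with wild type of well A2 only and 659 with the other 93 strains as the reference. It was 575 with the 83 members of at least 10 CPM and 355 with the 71 members whose partner was matched by identifier. Counts and medians of these smaller sets are not on the scale of all 185 members. The median per strain became 4 with either well alone, 3.5 with the other strains as the reference, 1 at the adjusted p, 4 with members of at least 10 CPM and 2 with partners by identifier. The share of higher calls was 70.4% (95% binomial interval 67.7% to 73.1%). This interval takes the calls as independent, but they share members, strains and wild-type libraries, so it is too narrow. The share became 67.4% after centring, 75.3% with well A1 only, 56.1% with the other strains as the reference, 76.4% at the adjusted p, 60.7% with members of at least 10 CPM, 75.9% where the mean over the deletion strains set the limit, and 73.3% without members overlapping a gene on their own strand (added after seeing the data). Calls in the RNA processing, chromatin and ribosomal protein groups were 45, 25 and 176 with well A2 only and 41, 24 and 120 with the other strains as the reference, and 43 and 28 at the adjusted p for the first 2 groups. Control genes had 36 calls with the replicate block, 9 with well A2 and 10 with the other strains. Partner calls were 61 with well A1, 66 with A2 and 44 with the other strains. Members called at least once numbered 69 of 83 with a limit of 10 CPM and 60 of 71 with partners by identifier. The median correlation was -0.023 over libraries with replicate number 2 and 0.0616 with the 5′ neighbour.

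Leaving out each library in turn gave 944 to 1149 calls, a median of 5 to 8 per strain, 142 to 152 members called at least once, 65.7% to 70.7% higher without a replicate number and 68.5% to 72.8% without a wild-type library, 84 to 105 calls in SAGA, 54 to 78 in RNA processing, 39 to 55 in chromatin, 82 to 110 in transcription factor and 223 to 280 in ribosomal protein strains, 13 (without wild-type replicate 2 of well A1) to 30 for control genes, where the full set had 22, and 70 to 105 for partners, and 1.09 to 1.56 for cay1-antisense-1 in cay1Δ.

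Without the 14 strains whose deleted gene was higher than in wild type there were 882 calls, 68.8% of them higher (added after seeing the data). Of 82 named fold changes, 58 kept direction and call under every alternative. Reversed were values that were not called to begin with: SPAC9.08c-antisense-1 (0.239) and cph1-antisense-1 (0.225) in spt8Δ with the other strains as the reference, and SPAPB15E9.02c-antisense-1 in spt8Δ without replicate 4 (0.0841) and without wild-type replicate 3 of well A2 (0.00166), where leaving out each library in turn gave -0.291 to 0.0841. The causes were not tested. With the replicate block there were 1267 calls and without it, in the same libraries, 1053, of which 888 were shared, and in the 80 strains where the numbers pair the libraries there were 985 and 820. Of the named fold changes, the block changed the call of cwf28-antisense-1 in arp5Δ, cph1-antisense-1 in spt7Δ and hop1-antisense-1 in pap1Δ (-0.64, no longer called). At this depth, transcripts near 1 CPM rest on a few reads.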
